A study of Mus musculus with 6 samples.

Results

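Zinc finger genes of the KRAB type were followed in CT26.WT, a line of colon carcinoma cells from mouse, after a combined nanoparticle, sulfide and light treatment. The genes were taken as entries of the authors' gene table with a Zfp number for a name (names starting with Zfp36 left out), the KEGG term for herpes simplex virus infection, and a mean level of at least 0.2 FPKM over the 6 libraries. FPKM is a count of fragments scaled by transcript length and by the size of the library. The genes were thus chosen by their annotation and by their measured level, which gives no test of that level. Of 25407 genes in the table, 367 had a Zfp number, 181 of these had the term, and 128 also reached the level. These 128 genes are the members described here. KEGG lists many KRAB zinc finger genes under that term, which says nothing about an infection of these cells.

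The study measured polyadenylated RNA in 3 treated libraries and 3 control libraries of CT26.WT cells. The treatment combined the nanoparticle Cu2O@AuMn@HA, named for its copper, gold and manganese parts, with NaHS, which releases hydrogen sulfide, and with NIR, near-infrared light. Control cells are labelled only as the control group, and dose and exposure time were not used here. The agents were given together, so their parts in any difference cannot be told apart. Whether the 3 libraries of each group came from separate cultures is not in the labels, and the p-values then measure no more than the spread between libraries, which may be technical.

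KRAB zinc finger proteins are the largest family of transcriptional repressors in mammals. Their arrays of C2H2 zinc fingers bind DNA sequences, often inside endogenous retroviruses and other retroelements, and their KRAB domain recruits the corepressor TRIM28 (KAP1). TRIM28 in turn brings the histone methyltransferase SETDB1, HP1 proteins and deacetylases, and the site is silenced with methylation of histone H3 at lysine 9. The genes arose largely by tandem duplication and stand in clusters on a small number of chromosomes. Neighbours are therefore often similar in sequence. Most are expressed at low levels in somatic cells.

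The label was checked against the authors' annotation. All 128 members carry the C2H2 zinc finger family in the authors' transcription factor column, and 73 of them also carry the Reactome term for the interaction of KRAB zinc fingers with KAP1. No protein sequences were used here, so the KRAB domain itself was not checked, and the other 55 members are KRAB-type by the KEGG term alone. The members that carry the Reactome term had a median log2 fold change of 0.70, and 38 of 73 rose (23 without the second treated library). Those without it had a median of 1.09, and 33 of 55 rose.

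Totals were 62328377 to 70323604 estimated counts in treated libraries and 71409968 to 81821380 in control libraries. Each fragment seemed to weigh about 4 estimated counts. Between 20621 and 21059 genes were above 0 in treated libraries and between 18681 and 18970 in control libraries. Markers checked the cell type. The keratins Krt18, Krt8 and Krt20 of simple and colonic epithelium were present in every library, while the epithelial adhesion genes Epcam and Cdh1 averaged 0.0045 and 0.0212 FPKM and the mesenchymal filament gene Vim averaged 1110 FPKM. The 3 leukocyte markers in the table (of 5 listed) summed to 0.0465 to 0.0963 FPKM in treated libraries and 0.028 to 0.087 in control libraries, and the 3 endothelial markers summed to 0.0325 to 0.0447 and 0.0229 to 0.0331 FPKM in treated and control libraries. Markers also differed between the groups. Of 9 colon epithelium markers, 7 were tested, of which Krt18, Krt8, Krt19 and Lgals4 rose (log2 fold changes 1.28, 0.67, 2.29 and 0.99) and Krt20 fell (-0.69), and the list summed to 225.0 to 238.1 FPKM in treated libraries and 153.1 to 169.7 FPKM in control libraries. Of 6 fibroblast and mesenchyme markers, Vim rose (0.45) and Acta2, Col1a1, Col1a2 and Pdgfrb fell (-2.58, -1.08, -0.51 and -0.27), with sums of 1329 to 1412 FPKM in treated libraries and 1004 to 1078 FPKM in control libraries. Sox2, a stem cell factor, had 13.1, 13.1 and 9.85 FPKM in treated libraries and 5.65, 4.05 and 3.72 FPKM in control libraries and rose (1.39). Of the 3 embryonic stem cell markers listed, Pou5f1 averaged 0.0299 FPKM and could not be tested, and Nanog had no entry. The part of these markers in the members' changes was not tested. In bulk RNA, fewer cells of a type and less RNA per cell cannot be told apart.

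The members were as a group higher in treated cells. In edgeR's quasi-likelihood test with Benjamini-Hochberg adjustment over all 16212 genes tested, 71 of the 128 members (55.5%) rose and 5 (3.91%) fell at an adjusted p under 0.05. Over all tested genes, 23.0% rose and 23.5% fell, so 46.6% changed in either direction. The median log2 fold change (treated over control) was 0.89 for the members and 0.06 for all tested genes. The fold change was above 0 in 107 members and below 0 in 21. A rise of at least 2-fold was found in 54 members, against 9.87% of all tested genes.

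A member had to reach its level through either group, and the choice of level favours genes that are high in 1 group. No member had a treated mean under 0.2 FPKM, while 29 had a control mean under 0.2 FPKM, and 27 of those 29 rose. Among the 99 members with a control mean of at least 0.2 FPKM, 44 rose, 5 fell and the median log2 fold change was 0.48. Taking all 181 Zfp genes with the term whatever their level, 170 could be tested, of which 87 rose and 5 fell, with a median of 0.98.

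The members together summed to 206.6, 224.9 and 192.1 FPKM in the treated libraries, against 163.7, 153.8 and 159.5 FPKM in the control libraries. The groups did not overlap in this sum. The 8 most abundant members gave 72.8, 69.3 and 72.3 FPKM of it in treated libraries and 68.5, 69.2 and 67.1 in control libraries, which is nearly the same in both groups. The remaining 120 members gave 133.8, 155.6 and 119.8 FPKM in treated libraries and 95.2, 84.6 and 92.4 in control libraries. The higher sum in treated cells thus lay in the less abundant members. In single genes, every treated library was above every control library in 57.8% of the members, as in 30.4% of all tested genes, and the groups overlapped in 49 members. In 5 members every treated library was below every control library, as in 27.1% of all tested genes.

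The second treated library stood apart for these genes. It held the highest of the 3 treated values in 93 of the 128 members, while it did so in 40.1% of all tested genes, and the second control library held the lowest value of all 6 in 65 members. Without the second treated library, 49 members rose, 6 fell and the median log2 fold change was 0.61. Without both libraries numbered 2, 52 rose, 4 fell and the median was 0.58. The part of this library in the results was not tested beyond these values.

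**Figure D1:**
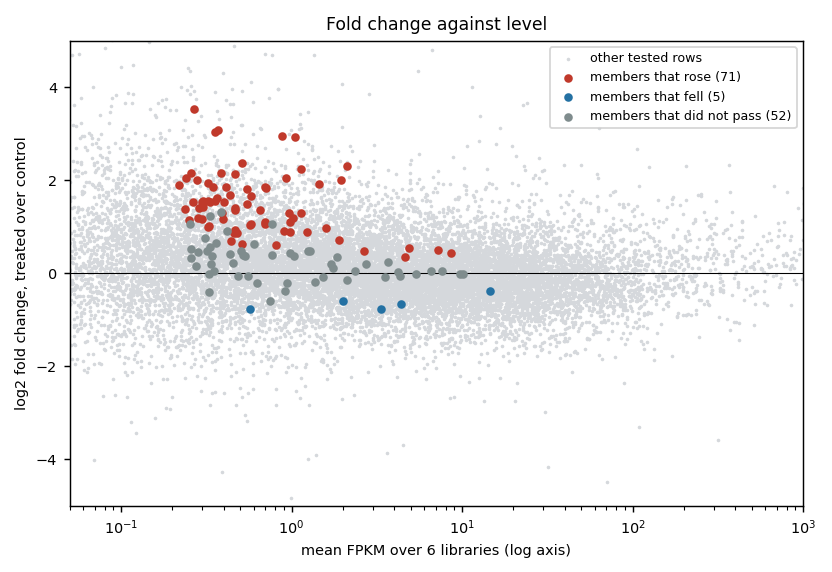
Log2 fold change, treated over control, against the mean level over 6 libraries in FPKM on a log axis, with 1 point per gene; coloured points are members and grey points other tested genes, of which those outside the axes are not drawn. The 71 members that rose lie mostly under 2 FPKM, and 4 of the 5 that fell lie at about 2 FPKM or above.

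Low members made up most of the rise, but the choice of level favours rises among them. The 29 members with a control mean under 0.2 FPKM had a median level of 0.303 FPKM, and 27 of them rose. Of the 57 members with a mean of 0.2 to 0.5 FPKM, 37 rose and 0 fell, with a median log2 fold change of 1.23; of all tested genes at that level, 21.5% rose and the median was 0.37. Of the 49 members at 0.5 to 2 FPKM, 28 rose and 1 fell, with a median of 0.89, where 26.2% of all tested genes rose. Of the 22 members at 2 FPKM or more, 6 rose and 4 fell, with a median of 0.04, where 25.3% of all tested genes rose and 36.6% fell. Leaving out the second treated library lowered the first count to 22 of 57 and left 23 of 49 in the middle band, and leaving out the first treated, the first control or the third control library lowered the count among the abundant members to 3. Zfp genes without the KEGG term at the same minimum level numbered 134, and 38 of them rose, 20 fell and the median log2 fold change was 0.13.

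The largest rise was that of Zfp52 on chromosome 17, a gene of the Zfp51 to Zfp53 neighbourhood. It had 0.527, 0.706 and 0.261 FPKM in the treated libraries, against 0.0733, 0.0290 and 0.0168 FPKM in the control libraries. Every treated value was above every control value, and the control values rest on 19, 8 and 5 estimated counts, of which the last 2 are under the floor of 12 (3 fragments). The log2 fold change was 3.53 ± 0.55 (SE; adjusted p = 0.000559 in edgeR's quasi-likelihood test). It was 4.20 without the first control library.

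Zfp51, its neighbour, had 1.4, 1.94 and 1.32 FPKM in treated libraries and 0.280, 0.124 and 0.186 FPKM in control libraries. The lowest treated value was well above the highest control value, and the log2 fold change was 2.95 ± 0.31 (SE; adjusted p = 5.08e-05). Zfp948, the most abundant of these 8 genes, had 3.19, 4.73 and 2.69 FPKM in treated libraries and 0.730, 0.556 and 0.799 FPKM in control libraries. The groups were far apart, with the second treated library highest and the second control library lowest, and the log2 fold change was 2.31 ± 0.24 (SE; adjusted p = 4.52e-05).

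Zfp97 and Zfp960 stand next to each other at another place on chromosome 17. Zfp97 had 1.93, 2.1 and 1.57 FPKM in treated libraries, against 0.240, 0.228 and 0.240 FPKM in control libraries, a log2 fold change of 2.93 ± 0.21 (SE; adjusted p = 5.03e-06). Zfp960 had 2.05, 1.91 and 1.70 FPKM in treated libraries, against 0.432, 0.314 and 0.419 FPKM in control libraries, a log2 fold change of 2.23 ± 0.20 (SE; adjusted p = 1.99e-05). Neither gene overlapped between groups. The genes are near-identical copies: of the 50-base words in the longest transcript of Zfp97, 80.2% also occur in Zfp960, so how the authors' counting split fragments between them is uncertain.

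Zfp729b and Zfp85 lie in the cluster on chromosome 13. Zfp729b had 0.542, 0.934 and 0.524 FPKM in treated libraries and 0.0373, 0.0406 and 0.152 FPKM in control libraries, a log2 fold change of 3.08 ± 0.51 (SE; adjusted p = 0.000867), which was 4.0 without the third control library. Zfp85 had 0.706, 0.863 and 0.351 FPKM in treated libraries, against 0.0928, 0 and 0.134 FPKM in control libraries. Both rose without overlap, but Zfp85 is the least certain of the 8: its log2 fold change of 3.04 ± 0.82 (SE; adjusted p = 0.0120) was 2.43 without the second control library, 3.70 without the third control library, and missed the threshold without the second treated library (adjusted p = 0.0589). Shared words made up 40.8% of the Zfp729b transcript and 25.2% of the Zfp85 transcript.

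Zfp120, on chromosome 2, had 0.884, 1.15 and 0.566 FPKM in treated libraries and 0.199, 0.150 and 0.137 FPKM in control libraries. The lowest treated library, the third, was still above the highest control library, and the log2 fold change was 2.36 ± 0.29 (SE; adjusted p = 0.000145). Only 0.944% of its words were shared with other genes.

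A rise of at least 4-fold was found in 15 of the 128 members, against 429 of all 16212 tested genes. Of these 15 members, 10 had a control mean under 0.2 FPKM, so the choice of level favoured them. Beside the 8 above, the 15 were Zfp607b, Zfp935, Zfp472, Zfp157, Zfp932, Zfp958 and Zfp994, with log2 fold changes from 2.0 to 2.15. Each of the 7 had every treated library above every control library. Zfp958, on chromosome 8, was the highest of the 7, with 2.51, 3.78 and 3.06 FPKM in treated libraries and 0.788, 0.620 and 0.863 FPKM in control libraries (log2 fold change 2.0 ± 0.21, SE; adjusted p = 5.64e-05). Zfp935 had 64.7% shared words and Zfp157 1.22%. Zfp935, Zfp157, Zfp958 and Zfp994 were named after their values were seen.

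Size alone did not make a call. Zfp874b, Zfp345, Zfp825 and Zfp229 had log2 fold changes of 1.32, 1.23, 1.07 and 1.05 and did not pass (adjusted p = 0.0541, 0.0762, 0.130 and 0.0572). Zfp825 had 0.781, 1.70 and 0.647 FPKM in treated libraries and 0.921, 0.243 and 0.299 FPKM in control libraries, so the first control library was above 2 of the treated ones. These 4 were chosen after their values were seen. Among C2H2 genes with the term but another kind of name, 15 reached the same level, of which 2 rose and 1 fell. These shares were 13.3% and 6.67%, where 23.0% of all tested genes rose and 23.5% fell. The fold change was above 0 in 11 of the 15 and below 0 in 4. Their median log2 fold change was 0.45, against 0.89 for the members and 0.06 for all tested genes.

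**Figure D2:**
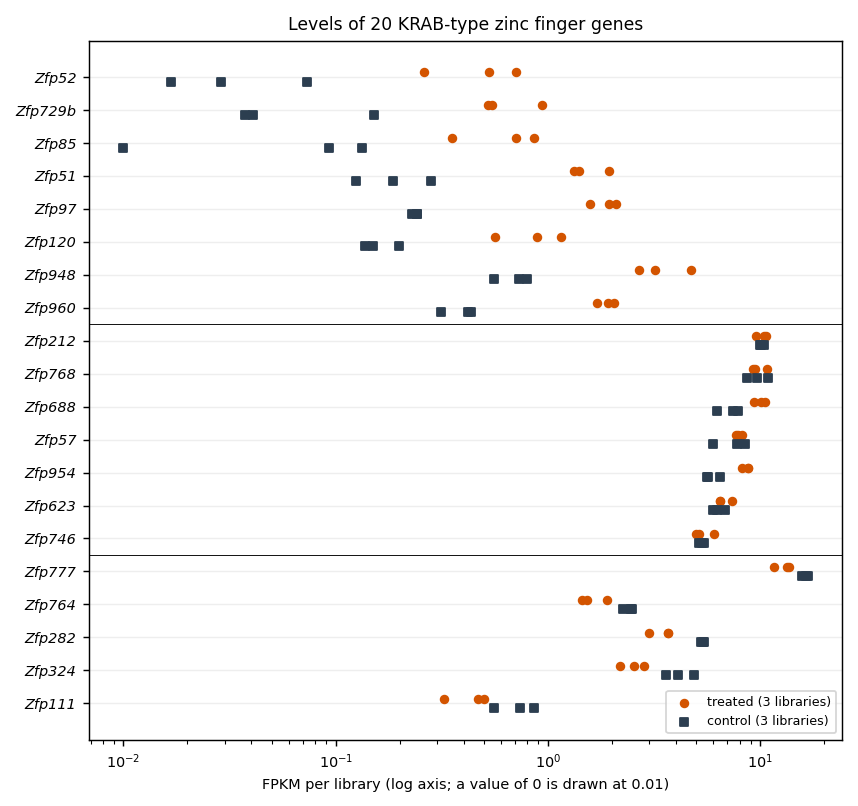
FPKM per library on a log axis for 20 members, with 3 treated libraries as circles and 3 control libraries as squares; the 8 largest rises are at the top, 7 of the 8 most abundant members in the middle and the 5 members that fell at the bottom. Among the rises each circle lies right of each square, from Zfp52 to Zfp960, and the single control value of 0 (Zfp85) is drawn at 0.01.

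Promoter sequence was read to show what the genes of this family share at their starts. RefSeq windows on GRCm38.p6, of 300 bases from 250 before to 50 after the annotated start, were matched by symbol for 113 of the 128 members. Where a gene had several windows, the first listed was used. Zfp97, Zfp932 and Zfp958 are shown as rising members from chromosomes 17, 5 and 8 that hold the same pair of short motifs, Zfp52 as the largest rise without either, and Zfp282 as a member that fell. Both strands were searched. Capitals mark CCAATCA and the ETS core CCGGAA, where a match on the opposite strand stands as its reverse complement, and in Zfp97 matches on both strands overlap. Zfp958 and the motifs were chosen after the sequences and values were seen.

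Zfp97, chr17:17121133-17121432, plus strand: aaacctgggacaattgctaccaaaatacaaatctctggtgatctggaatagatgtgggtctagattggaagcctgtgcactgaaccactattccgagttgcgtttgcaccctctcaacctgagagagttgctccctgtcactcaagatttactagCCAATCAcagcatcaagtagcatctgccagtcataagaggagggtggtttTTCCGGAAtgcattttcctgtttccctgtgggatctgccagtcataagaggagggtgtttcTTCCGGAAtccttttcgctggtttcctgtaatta
Zfp932, chr5:109996260-109996559, plus strand: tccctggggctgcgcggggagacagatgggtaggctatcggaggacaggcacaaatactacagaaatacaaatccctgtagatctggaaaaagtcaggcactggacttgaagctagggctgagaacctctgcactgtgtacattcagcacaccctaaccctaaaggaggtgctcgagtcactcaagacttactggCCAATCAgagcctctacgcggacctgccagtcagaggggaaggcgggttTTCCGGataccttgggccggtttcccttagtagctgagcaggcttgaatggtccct
Zfp958, chr8:4612920-4613219, plus strand: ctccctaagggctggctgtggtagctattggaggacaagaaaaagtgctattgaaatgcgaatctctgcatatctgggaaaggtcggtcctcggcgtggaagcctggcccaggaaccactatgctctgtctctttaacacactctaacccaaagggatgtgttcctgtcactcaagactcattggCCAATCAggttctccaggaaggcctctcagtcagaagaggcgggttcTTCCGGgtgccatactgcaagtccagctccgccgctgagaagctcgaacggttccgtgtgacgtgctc
Zfp52, chr17:21535289-21535588, plus strand: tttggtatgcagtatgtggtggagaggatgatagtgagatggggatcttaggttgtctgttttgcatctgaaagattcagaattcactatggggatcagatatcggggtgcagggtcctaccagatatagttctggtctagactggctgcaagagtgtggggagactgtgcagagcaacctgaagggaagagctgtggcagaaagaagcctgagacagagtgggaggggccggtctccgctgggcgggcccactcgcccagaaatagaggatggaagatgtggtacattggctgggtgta
Zfp282, chr6:47877305-47877604, plus strand: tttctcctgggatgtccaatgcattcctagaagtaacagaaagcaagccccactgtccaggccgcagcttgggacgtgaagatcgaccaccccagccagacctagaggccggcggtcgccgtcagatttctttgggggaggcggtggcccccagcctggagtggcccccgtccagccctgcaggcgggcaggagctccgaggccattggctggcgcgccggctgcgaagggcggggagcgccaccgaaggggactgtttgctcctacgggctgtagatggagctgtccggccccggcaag

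CCAATCA lay in 30 of the 113 members' windows (26.5%), against 8.2% of 27025 windows of all genes. It was found in 23 of 62 windows of members that rose (37.1%), in 7 of 46 of members that did not pass (15.2%) and in 0 of 5 of members that fell. The ETS core lay in 40.7% of members' windows and 15.2% of all windows, and in 48.4% of the windows of rising members and 32.6% of those that did not pass. The shorter CCAAT, which every CCAATCA contains, lay in 56.6% of members' windows and 37.9% of all. TATAAA lay in 4.42% of members' windows and 14.2% of all. The windows of all genes were not limited by level, as the members were. The members' windows also held more CpG (C followed by G), with a median of 12 against 7 in all windows, and the ETS core contains a CpG. The part of these differences in the motif counts was not tested. CCAATCA and the ETS core were chosen after the values were seen, so their counts among rising members are a description only. Of the 113 members with a window, 47 shared a run of at least 16 identical bases with another member. The windows are thus not independent of each other.

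Motifs of stress responses were searched as well. ACGTG, the core of the hypoxia response element, lay in 21.2% of members' windows and 19.7% of all. TGCNCNC, a looser form of the core of the metal response element, lay in 51.3% and 50.4%. TGACNNNGC, the core of the antioxidant response element, lay in 15.0% and 12.5%. Within the members, ACGTG lay in 25.8% of the windows of those that rose and 13.0% of those that did not pass, TGCNCNC in 45.2% and 60.9%, and TGACNNNGC in 9 of 62 and 8 of 46. These matches are a description of letters, and binding was not tested. Windows also resembled each other: 57 pairs of members shared a run of at least 16 identical bases, 37 of them with both genes on the same chromosome, and the longest such run, between Zfp119a and Zfp959, was 114 bases.

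The log2 fold changes of the 5 members that fell ran from -0.78 to -0.38. Zfp111, in the chromosome 7 cluster near Zfp180, had 0.5, 0.467 and 0.323 FPKM in treated libraries and 0.858, 0.736 and 0.558 FPKM in control libraries, a log2 fold change of -0.78 ± 0.21 (SE; adjusted p = 0.0138). Zfp324, also on chromosome 7, had 2.83, 2.19 and 2.54 FPKM in treated libraries and 3.60, 4.85 and 4.11 FPKM in control libraries, a log2 fold change of -0.77 ± 0.16 (SE; adjusted p = 0.00274). In both genes each treated library was below each control library. Zfp111 missed the threshold when both libraries numbered 2 were left out (adjusted p = 0.0523).

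Zfp282, whose human counterpart was found as a repressor of the long terminal repeat of human T-cell leukaemia virus, had 3.66, 2.99 and 3.69 FPKM in treated libraries and 5.45, 5.35 and 5.25 FPKM in control libraries. Its log2 fold change was -0.67 ± 0.11 (SE; adjusted p = 0.000613), with no overlap. Zfp764 averaged 1.62 ± 0.245 FPKM in treated cells and 2.40 ± 0.130 FPKM in control cells (SD, n = 3 each), a log2 fold change of -0.61 (adjusted p = 0.0142), which missed the threshold without both libraries numbered 2 (adjusted p = 0.0866). Shared words made up 27.6% of its transcript. Zfp777, the most abundant member of all, had 13.6, 11.6 and 13.3 FPKM in treated libraries and 15.7, 16.8 and 16.3 FPKM in control libraries, and its log2 fold change was the smallest of the 5 at -0.38 ± 0.09 (SE; adjusted p = 0.00689).

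The 8 most abundant members had means between 5.34 and 14.6 FPKM. After Zfp777 came Zfp212 with 10.2 ± 0.576 FPKM in treated cells and 10.1 ± 0.227 FPKM in control cells, and Zfp768 with 9.80 ± 0.820 and 9.71 ± 1.14 FPKM in treated and control cells (SD, n = 3 each). These 2 do not differ from each other beyond their spread. Neither passed the test between groups (adjusted p = 0.872 and 0.901). Zfp688 averaged 9.97 ± 0.607 FPKM in treated cells and 7.15 ± 0.822 FPKM in control cells and rose (log2 fold change 0.44 ± 0.11, SE; adjusted p = 0.01), but missed the threshold without the first treated library (adjusted p = 0.0538) or the third control library (adjusted p = 0.0573).

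Zfp954 had 8.71, 8.77 and 8.23 FPKM in treated libraries and 6.42, 5.66 and 5.63 FPKM in control libraries. It rose without overlap (log2 fold change 0.50 ± 0.11, SE; adjusted p = 0.00329). Zfp623 averaged 6.77 ± 0.505 FPKM in treated cells and 6.36 ± 0.424 FPKM in control cells (SD, n = 3 each) and did not pass (adjusted p = 0.735). At the low end of the level, Zfp597 and Zfp874a were just inside with means of 0.238 and 0.218 FPKM, while Zfp607a and Zfp974 were just outside with means of 0.195 and 0.193 FPKM. The log2 fold changes of these 4 were 1.39, 1.91, 2.36 and 1.10.

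Members with a role known from mouse or human work were read whatever their result. Zfp57 binds methylated imprinting control regions and keeps their marks in mouse embryos. It had 7.82, 8.18 and 7.67 FPKM in treated libraries and 8.47, 7.79 and 6.01 FPKM in control libraries, and the groups overlapped (log2 fold change 0.05 ± 0.13, SE; adjusted p = 0.766). Zfp746 encodes PARIS, a substrate of the ubiquitin ligase parkin that represses the PGC-1α gene in neurons. It averaged 5.39 ± 0.565 FPKM in treated cells and 5.29 ± 0.132 FPKM in control cells (SD, n = 3 each; adjusted p = 0.936).

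Zfp809 silences murine leukaemia viruses in mouse embryonic stem cells through their primer binding site. It had 1.25, 1.51 and 1.13 FPKM in treated libraries and 1.48, 1.28 and 1.58 FPKM in control libraries, with overlap and a log2 fold change of -0.19 ± 0.18 (SE; adjusted p = 0.415). Zfp568 represses a placental promoter of Igf2 in mouse embryos. It had 0.460, 1.06 and 0.285 FPKM in treated libraries and 0.871, 0.843 and 0.952 FPKM in control libraries, so 2 treated libraries were below all control libraries and the second treated library was above them. Its log2 fold change was -0.60 ± 0.38 (SE; adjusted p = 0.226) and became -1.31 without the second treated library (adjusted p = 0.00224).

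Zfp932 represses endogenous retroviruses in mouse embryonic stem cells, as does its paralogue Gm15446. It had 1.4, 1.87 and 1.23 FPKM in treated libraries and 0.371, 0.330 and 0.354 FPKM in control libraries. It rose with a wide gap between groups (log2 fold change 2.04 ± 0.21, SE; adjusted p = 4.84e-05), and 42.6% of its words also occur in Gm15446, so fragments may be split between them. Zfp30, linked to neutrophil recruitment in the mouse airway, had 1.46, 1.45 and 1.25 FPKM in treated libraries and 0.643, 0.589 and 0.424 FPKM in control libraries and rose (log2 fold change 1.29 ± 0.19, SE; adjusted p = 0.000409). Zfp90, Zfp689 and Zfp961 did not pass, with log2 fold changes of -0.41, -0.15 and 0.90 (adjusted p = 0.172, 0.534 and 0.0735).

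The members are spread over 16 chromosomes, with 38 on chromosome 7, 24 on chromosome 17, 11 on chromosome 13 and 10 each on chromosomes 4 and 8. Of the members on chromosome 17, 18 of 24 rose and 0 fell, with a median log2 fold change of 1.33. On chromosome 13, 9 of 11 rose (median 1.53), and on chromosome 7, 15 of 38 rose and 3 fell (median 0.48). Chromosome clusters were drawn as chains of Zfp genes with the term whose neighbouring starts lie at most 1 Mb apart. There were 13 clusters with at least 4 members, and they held 84 members, of which 46 rose (54.8%). Of the 44 members outside them, 25 rose (56.8%). Both shares are near that of all members (55.5%). Over all tested genes, 23.0% rose and 23.5% fell. The choice of level favours rises here too, since some cluster members had a control mean under 0.2 FPKM. Over all members, 27 of the 29 with such a control mean rose. Each cluster is named by its first and last member, while positions are those of the whole chain, which can start or end at a gene that is no member. Coordinates below are as the authors' table gives them, and no source used here gives its genome build.

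One of the 2 largest clusters runs from Zfp160 to Zfp13 on chromosome 17 (positions 21229165 to 23818461). Of its 11 members, 10 rose, with log2 fold changes from 0.47 (Zfp53) to 3.53 (Zfp52) and a median of 1.37. It is led by Zfp948, Zfp51 and Zfp52, described above. With the GC correction, described further on, 7 of the 11 rose (median 0.92), and without both libraries numbered 2 also 7. A second chromosome 17 cluster runs from Zfp871 to Zfp101 (positions 32984470 to 33613615), where 5 of 7 members rose with a median of 1.42. Its member with the smallest p, Zfp472, averaged 0.759 ± 0.167 FPKM in treated cells and 0.170 ± 0.0654 FPKM in control cells (SD, n = 3 each; log2 fold change 2.13, adjusted p = 0.000813). Without the second treated library 3 of these 7 rose. In the first of these clusters Zfp51, Zfp52, Zfp994 and Zfp229 had control means under 0.2 FPKM, and in the second Zfp472, Zfp763, Zfp81 and Zfp101. They reached the level only through the treated libraries, and all but Zfp229 rose.

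In the chromosome 13 cluster from Zfp874a to Zfp85 (positions 67186660 to 67975121), 7 of 8 members rose, with a median log2 fold change of 1.53. Zfp874a, with the smallest p, averaged 0.347 ± 0.0748 FPKM in treated cells and 0.0898 ± 0.0284 FPKM in control cells (SD, n = 3 each; log2 fold change 1.91, adjusted p = 0.000629). Without the second treated library 4 of these 8 rose. Of the chain's 16 genes, 8 reached the level. Zfp729b, Zfp85, Zfp58, Zfp65, Zfp748 and Zfp874a did so with control means under 0.2 FPKM, thus only through the treated libraries. On chromosome 7, all 5 members from Zfp788 to Zfp719 (positions 41282627 to 43242659) rose, with a median of 1.62. Zfp788 averaged 0.557 ± 0.0837 FPKM in treated cells and 0.175 ± 0.0384 FPKM in control cells (SD, n = 3 each; log2 fold change 1.62, adjusted p = 0.000632). It too reached the level only through the treated libraries.

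On chromosome 4, from Zfp991 to Zfp933 (positions 147216495 to 147932823), 5 of 7 members rose and the median log2 fold change was 1.56; with the GC correction 3 of 7 rose and the median was 0.89. These genes are the most alike of all the clusters described: the median share of words found in another gene was 54.6%, so their single values are uncertain. Zfp534, with 68.4% shared words, averaged 0.545 ± 0.0541 FPKM in treated cells and 0.143 ± 0.00680 FPKM in control cells (SD, n = 3 each; log2 fold change 1.86, adjusted p = 0.000486). From Zfp607b to Zfp59 on chromosome 7, 3 of 4 members rose (median 1.44), led by Zfp607b with 0.423 ± 0.0660 FPKM in treated cells and 0.0907 ± 0.0238 FPKM in control cells (SD, n = 3 each; adjusted p = 0.000216). From Zfp317 to Zfp266 on chromosome 9, 3 of 4 rose (median 1.0), and Zfp560 there had a log2 fold change of 0.91 (adjusted p = 0.00248). Zfp534, Zfp988 and Zfp991 on chromosome 4, and Zfp607b and Zfp626 on chromosome 7, had control means under 0.2 FPKM. They reached the level only through the treated libraries, and all of them rose.

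From Zfp930 to Zfp866 on chromosome 8, 3 of 5 members rose with a median log2 fold change of 0.70. Only Zfp930 (log2 fold change 1.54, adjusted p = 0.00184) kept its call in all 6 settings that left out 1 library, and 1 of 5 rose without the first or the second treated library, or the second or the third control library. With the GC correction 1 of 5 rose as well. The chromosome 7 cluster from Zfp84 to Zfp382 (positions 29467977 to 29834375) is as large as the first, with 11 members, but 2 of them rose, Zfp30 and Zfp383, and its median was 0.47. Without the third treated library 6 of its 11 members rose, and without the second treated library Zfp568 fell.

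In 4 clusters the members' median was near 0. From Zfp398 to Zfp746 on chromosome 6 (positions 47796200 to 48063527), 1 of 6 members rose (Zfp956), Zfp282 and Zfp777 fell, and the median log2 fold change was -0.02. The call of Zfp956 was lost without the first or the third control library. This cluster holds the most abundant members, with a median level of 5.10 FPKM and 3 of the 8 highest of all.

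From Zfp180 to Zfp94 on chromosome 7, 0 of 7 members rose and Zfp111 fell, with a median of 0.11. Without the third treated or the first control library, and with the GC correction, 1 of these 7 rose. From Zfp768 to Zfp689 on chromosome 7, Zfp688 rose and Zfp764 fell among 5 members (median -0.02), with the exceptions for both given above. From Zfp623 to Zfp7 on chromosome 15, 1 of 4 rose, Zfp707, with 5.21 ± 0.0531 FPKM in treated cells and 3.99 ± 0.488 FPKM in control cells (SD, n = 3 each; log2 fold change 0.35, adjusted p = 0.0333). The call of Zfp707 was lost whichever of the 6 libraries was left out. Whether the clusters differ from each other was not tested.

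**Figure D3:**
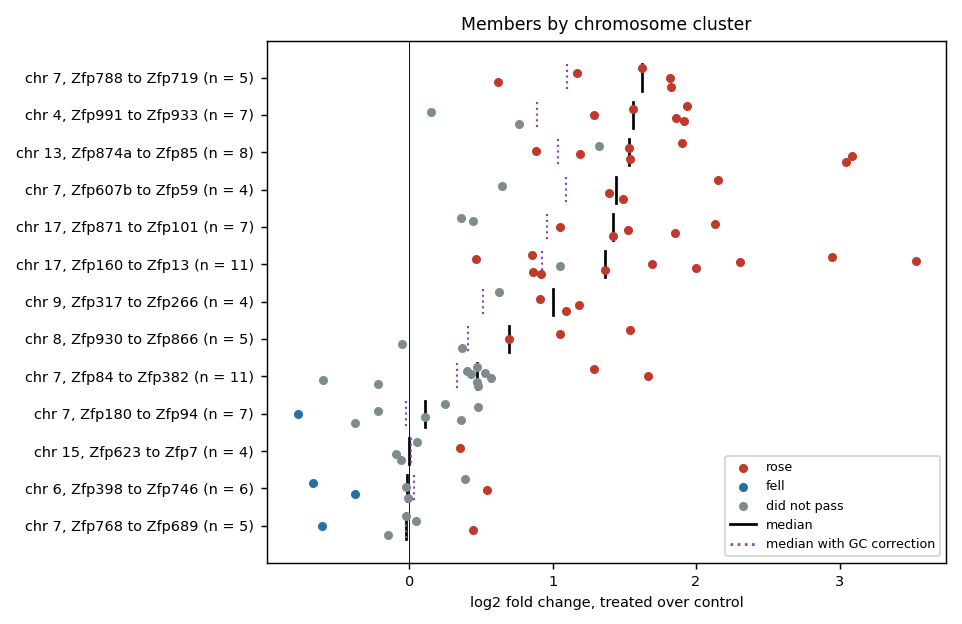
Log2 fold change, treated over control, of the 84 members in 13 chromosome clusters, with 1 point per gene in chromosome order within a cluster; the solid bar is the cluster's median and the dotted bar its median after correction for GC content. Medians run from 1.62 (Zfp788 to Zfp719) to -0.02 (Zfp768 to Zfp689), and each cluster with a median of at least 1 keeps a dotted bar above 0.5.

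GC content moved with these fold changes. The longest transcript of the members had a median GC content of 43.3%, against 50.1% for all tested genes, and a median length of 3484 bases against 2882. Over the 128 members, Spearman's rho was -0.73 between GC content and log2 fold change, and -0.43 between level and log2 fold change; the members share libraries and base composition, and GC content and level went together (rho 0.53). Over 15760 tested genes with a GC value, rho between GC content and log2 fold change was -0.27.

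Among the 55 members with under 42% GC, 45 rose and 0 fell, with a median log2 fold change of 1.53, and 50.0% of the 1397 tested genes of the same GC content at 0.2 FPKM or more rose (median 0.62). Among the 39 members of 42 to 48% GC, 18 rose and 1 fell, where 29.4% of such genes rose. Among the 34 members with 48% GC or more, 8 rose and 4 fell, where 18.9% of such genes rose and 34.8% fell. Without the second treated library, 9 of 39 rose in the middle band, and without the second control library 11. In the high band 4 of 34 rose without the first treated or the third control library, and 5 without the second treated, the first control or the second control library. The choice of level favours rises among members of low GC content. The 29 members with a control mean under 0.2 FPKM, of which 27 rose, had a median GC content of 39.6%.

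A correction that fitted each library's trend with GC content lowered the members' median log2 fold change to 0.56, with 57 members rising and 6 falling, where 20.7% of all tested genes rose and 28.8% fell. Of the 71 members that rose without it, 56 also rose with it. Among members with under 42% GC, 37 of 55 rose with the correction (median 0.99), against 30.1% of all tested genes of that GC content (median 0.13). Of those under 2 FPKM, 36 of 53 rose (median 0.99), against 30.2% of such genes (median 0.22). The choice of level favours these rises too. With the correction, 22 of the 29 members with a control mean under 0.2 FPKM rose. Of the 99 other members, 35 rose and 6 fell (median 0.33). Over the members, rho between GC content and the corrected fold change was -0.55, against -0.09 over all tested genes. The part of GC content in the rise was not tested beyond these values.

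**Figure D4:**
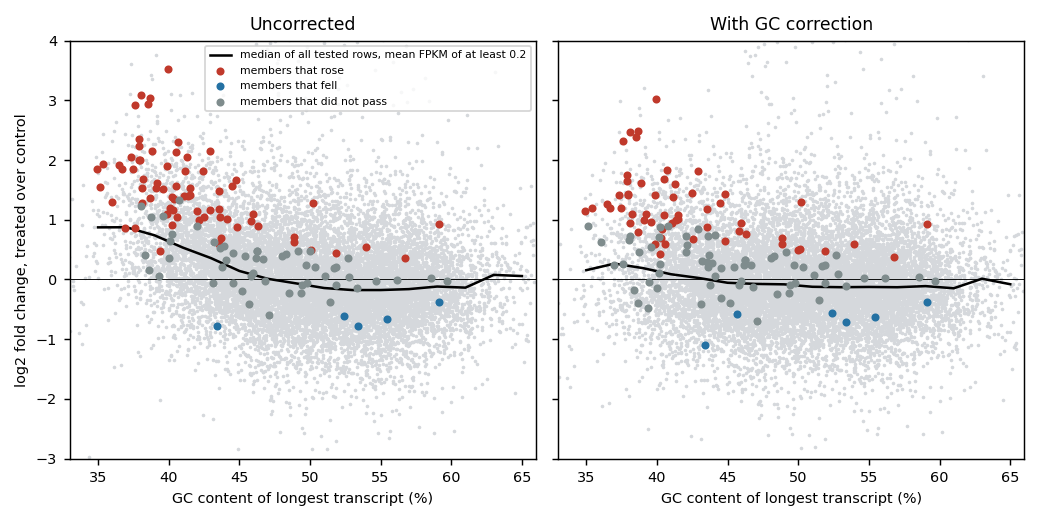
Log2 fold change, treated over control, against the GC content of the longest transcript in percent, without (left) and with (right) correction for GC content; coloured points are members, with calls as in each panel's own test, grey points other tested genes within the axes, and the line their running median. Members with under 42% GC have medians of 1.53 (left) and 0.99 (right), against 0.62 and 0.13 for all tested genes of that GC content. The choice of level favours rises among the members.

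Corepressors of KRAB zinc finger proteins were read together with other genes of heterochromatin and DNA methylation. The list held 30 genes, of which 29 were tested and 1 is an older name of a listed gene. All of them are called corepressor genes below, though many are not known as partners of KRAB proteins. The list was drawn up with earlier results of these data known. Of the 29, 8 rose (27.6%), 15 fell (51.7%) and 6 did not pass, where 23.0% of all tested genes rose and 23.5% fell. All 15 that fell had a mean of at least 2 FPKM, and of all tested genes at that level 25.3% rose and 36.6% fell. The list had a median log2 fold change of -0.35, below 0 where that of the zinc finger genes was above it. Its summed level was 352.1 to 360.7 FPKM in treated libraries and 547.5 to 557.8 FPKM in control libraries. Trim28, the scaffold itself, had 97.0, 90.6 and 105.0 FPKM in treated libraries and 141.6, 147.5 and 140.7 FPKM in control libraries. It fell without overlap (log2 fold change -0.59 ± 0.09, SE; adjusted p = 0.000487). Setdb1, the H3 lysine 9 methyltransferase that TRIM28 recruits, averaged 4.76 ± 0.367 FPKM in treated cells and 7.26 ± 0.776 FPKM in control cells (SD, n = 3 each) and fell (log2 fold change -0.65; adjusted p = 0.000795), as did its partner Atf7ip (-0.80; adjusted p = 7.86e-05).

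The maintenance DNA methyltransferase Dnmt1 had 12.9, 11.8 and 11.5 FPKM in treated libraries and 32.6, 36.1 and 33.6 FPKM in control libraries, the largest fall of the list (log2 fold change -1.54 ± 0.08, SE; adjusted p = 1.49e-06). Uhrf1, which brings DNMT1 to replicating DNA, averaged 29.9 ± 1.42 FPKM in treated cells and 78.2 ± 5.50 FPKM in control cells (SD, n = 3 each; log2 fold change -1.42). The methyltransferase Suv39h1 averaged 7.25 ± 0.323 and 17.8 ± 0.183 FPKM in treated and control cells (log2 fold change -1.33), and the remodeller Chd4 averaged 23.4 ± 1.55 and 39.2 ± 0.656 FPKM (log2 fold change -0.78). All 3 fell, and none of these 4 genes overlapped between groups.

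The HUSH complex silences retroelements beside the KRAB pathway, and its subunits did not move together. Mphosph8 averaged 2.17 ± 0.692 FPKM in treated cells and 0.831 ± 0.185 FPKM in control cells (SD, n = 3 each) and rose (log2 fold change 1.34; adjusted p = 0.00173). Tasor was low, with 0.116 ± 0.0194 and 0.0488 ± 0.0256 FPKM in treated and control cells, and rose (1.21; adjusted p = 0.0220) but not with the GC correction (adjusted p = 0.149), nor without the first treated, the second treated, the first control or the second control library. Pphln1 averaged 3.39 ± 0.389 and 5.14 ± 0.812 FPKM in treated and control cells and fell (-0.63; adjusted p = 0.00335), and Morc2a, which works with HUSH, fell as well (-0.68; adjusted p = 0.000689). Morc3 rose (1.11; adjusted p = 0.00229).

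The HP1 proteins, which bind methylated lysine 9, were split: Cbx5 fell (log2 fold change -0.91; adjusted p = 0.00188), Cbx1 fell (-0.31; adjusted p = 0.0277) and Cbx3 rose (0.57; adjusted p = 0.0113). With the GC correction Cbx3 was at 0.01 (adjusted p = 0.925), and 4 of the 29 genes rose and 15 fell. The call of Cbx1 was lost without the first treated, the third treated or the first control library, and its adjusted p reached 0.155 over 19 alternatives. The call of Cbx3 was lost without the second treated or the third control library. The count of 8 rising genes was 4 without the first or the second treated library and 5 without the second or the third control library. Setdb1, Atf7ip, Trim28, Morc3, the HP1 genes and the HUSH subunits were named after their values were seen.

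**Figure D5:**
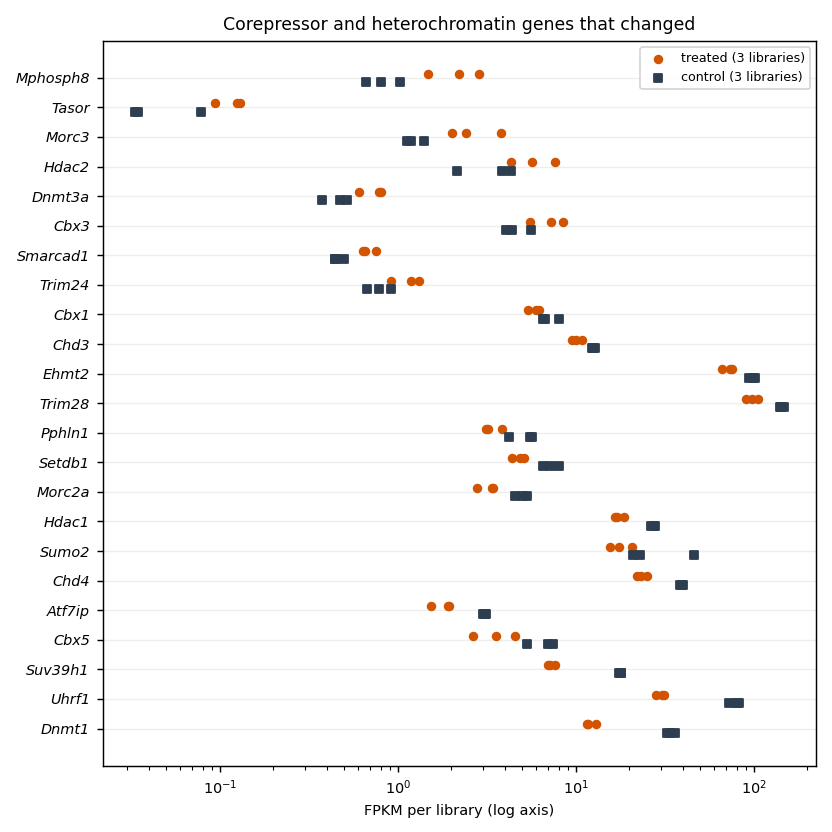
FPKM per library on a log axis for the 8 corepressor and heterochromatin genes that rose and the 15 that fell, ordered from the largest rise at the top to the largest fall at the bottom, with 3 treated libraries as circles and 3 control libraries as squares. Dnmt1, Uhrf1 and Suv39h1 at the bottom have each circle left of each square, and Trim28 lies between 90.6 and 105.0 FPKM in treated and 140.7 and 147.5 FPKM in control libraries.

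Imprinted genes were read because Zfp57 and Zfp445 keep imprints in mouse embryos. Of 30 listed genes, 20 were in the table and 10 could be tested; 4 of the 10 rose, 1 fell and the median log2 fold change was 0.54, where 23.0% of all tested genes rose and 23.5% fell. Mcts2 averaged 1.97 ± 0.564 FPKM in treated cells and 0.803 ± 0.142 FPKM in control cells (SD, n = 3 each) and rose (log2 fold change 1.26; adjusted p = 0.00712), and Inpp5f rose (0.99; adjusted p = 0.00409). Igf2r (0.27; adjusted p = 0.0161) and Gnas (0.25; adjusted p = 0.0173) rose by little, and neither passed without the first treated, the first control or the third control library. Commd1 fell (-0.47; adjusted p = 0.000909). Impact, the most abundant that did not pass, averaged 2.38 ± 0.804 FPKM in treated cells and 1.83 ± 0.367 FPKM in control cells. Of the 20 genes in the table, 11 were under 0.1 FPKM in every library, among them H19, Peg3 and Meg3. Without the first treated or the first control library, 2 of the list rose. Gnas was named after its values were seen. Transcripts of the retroelements were not analysed here.

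Sequence shared between copies touched 88 members to some degree, since at least 1 of their 50-base words also occurs in another gene. In 14 members the share was 40% or more, and 12 of these rose (median log2 fold change 1.89). In the 87 members under 5%, where the assignment of fragments is least uncertain, 45 rose, 4 fell and the median log2 fold change was 0.62; without the second treated library 28 of these 87 rose. Of the 71 rising members, 35 rose in each of the 19 other fits over all genes that were run.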

How the data were processed

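Per the labels' protocols, CT26.WT mRNA was captured on oligo-dT beads, made into libraries with a dUTP-marked second strand that was digested, and read as pairs of 150 bases. Per the file headers, the authors deposited FPKM and a count per gene and library. The deposited counts are taken as estimated counts, since multiples of 4 were in excess among low values (4054 entries of exactly 4, where the neighbouring counts averaged 2539.5). The submitters' processing notes list HISAT2 2.2.1, StringTie 2.1.6, cutadapt 1.9, edgeR and DESeq2. Their roles, the genome build and the use of strand in counting are not given in the sources used, so genes that overlap others, and antisense pairs, are uncertain.

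The members, lists and tests were chosen with earlier results of these data known. Differences were tested with the quasi-likelihood test of edgeR 4.0.16 (R 4.3.3) on the whole-number counts as deposited, 2-sided, after the default filter and TMM scaling. Adjustment was by Benjamini-Hochberg over 16212 genes, with a threshold of 0.05. Standard errors are the absolute log2 fold change over the square root of F. Named members are the 8 highest, the 8 largest rises, the falls, the smallest p of each cluster, the most abundant that did not pass, those beside the level of 0.2 and a list of known roles. Of the other lists, up to 4 genes past the threshold with the smallest p are named, and the most abundant that did not pass.

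GC content and shared 50-base words came from GENCODE release M21 transcripts, matched on identifier for 97.2% of tested genes, and the GC correction was a loess fit per library (span 0.4). Of the members, 1 of 128 had the same start and end there as in the authors' table, so no coordinates were carried between them. The floor of 3 fragments, or 12 estimated counts per library, covers counting error only. Alternatives were DESeq2 1.42.0, limma 3.58.1 on log2(FPKM + 1) and log2(FPKM + 0.1), other scalings, filters and levels, counts divided by 4, a replicate block and libraries left out. Tested on simulated data of 15748 genes for the treated against control comparison, the edgeR step recovered 78% of genes changed 2-fold and 94% of those changed 4-fold, and called 7 unchanged genes. The changed genes were drawn only from those above a minimum mean count, and each estimated count was drawn as a fragment of its own. These shares may therefore not hold for the members. Some genes of the lists were not analysed here, and some that the naming rule takes are not reported here.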

Additional observations from a re-analysis of the deposited data

How the results depend on the processing

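The count of 71 rising members was between 52 and 79 with another test, scaling, filter, pseudocount or GC correction, with a replicate block or without both libraries numbered 2, and 49 to 74 with 1 library left out. The count of 5 falling members was 4 to 7 in the first set and 5 to 6 in the second. With another choice of members, 34 rose of those at 0.5 FPKM or more, 15 at 1 FPKM or more, 44 with 0.2 FPKM in each group's mean, and, chosen after the data were seen, 45 with under 5% shared words and 38 with the Reactome term, of which 3 fell; these sets hold fewer genes. Of the 681 values of named members under an alternative, 25 lost the call, 10 gained it and 0 turned direction. Over all genes, 3735 rose and 3813 fell; the numbers were 4688 and 3028 with upper-quartile scaling, which moved the median of all genes by 0.12 (log2), 4183 and 3351 with library totals, and 3258 and 4537 with the GC correction, and the members' median stayed 0.83 above that of all genes with both scalings and 0.60 above it with the correction. On log2(FPKM + 1) with limma the members' median was 0.28, which is 0.25 above that of all genes, and with a pseudocount of 0.1 it was 0.74 and 0.69 above; the larger pseudocount shrinks the fold changes of low genes by construction. With 1 library left out, 2832 to 3572 genes rose and 3241 to 3720 fell. The 8 rising corepressor genes became 4 with the GC correction, 5 with either limma fit, 3 without both libraries numbered 2, and 4 to 8 with 1 library left out, and the 4 rising imprinted genes 2 to 4; the cause was not tested.

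Same-numbered treated and control libraries showed no strong common deviation (correlations of 0.0399, -0.103 and 0.00645), and differently numbered ones ran from -0.0895 to 0.0814. With 3 libraries per group this cannot decide whether same-numbered libraries share a culture or a batch, which the labels do not say. With the replicate block 3070 genes rose and 3205 fell, 65 members rose and 5 fell, 5 corepressor genes rose and 14 fell, and 2 imprinted genes rose and 1 fell. With the block and the GC correction together 4 corepressor genes rose. Clusters with at least 4 members numbered 11 at a gap of 0.5 Mb and 12 at 2 Mb, against 13. Depth limits the low members: at the second control library 2 members, and at the third 1, were under 12 estimated counts.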
